A study of Danio rerio with 12 samples.

Results

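The MiniCoopR-GFP melanomas are the 6 zebrafish (Danio rerio) tumours, of 12 in the series, whose titles and genotype label name MiniCoopR-GFP. They were chosen by those labels alone, and every value given here comes from them; the other 6 tumours, labelled MiniCoopR-MyrRSK, were not used. MiniCoopR is a transgenesis vector that carries mitfa back into fish lacking it, together with a second gene, which in these tumours was GFP, a fluorescent protein. All 6 tumours share that genotype label, the tissue label of zebrafish melanoma and no treatment. The genetic background of the fish, their age, any engineered cancer allele and whether a tumour was 1 clone do not appear in the labels. Nor do these say whether the tumours (GFP 1 to GFP 6) came from separate fish, so the spread described is that between these 6 samples.

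Melanoma arises from melanocytes, the pigment cells that the neural crest gives rise to. In melanocytes the transcription factors Mitfa and Sox10 switch on enzymes and structural proteins of the melanosome, the organelle in which melanin is made, among them Tyr, Tyrp1, Dct and Pmel. Fish carry other pigment cells from the same embryonic source, the reflective iridophores and the yellow xanthophores. A piece of tumour also holds skin, vessels, blood and immune cells, and RNA from all of them is sequenced together.

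RNA with a polyA tail was sequenced from each tumour. The 6 libraries held 66200553 to 72257237 gene counts each, so counting error was small for all but low genes. The table listed 27827 genes, of which 20781 had a mean of at least 1 CPM (a count scaled to a fixed library total, after adjusting the libraries to each other), and these are the genes described. Spread is given as the SD of log2 CPM over the 6 tumours, where an SD of 1 is a 2-fold step, and a gene with an SD of at least 1 is called variable. On the first principal component, with 35.7% of the variance, GFP 1 and GFP 2 lay at 105 and 81.5. The other 4 tumours ran from -102.2 in GFP 4 to -1.08 in GFP 6, so these 4 formed no tight cluster. The second component, with 23.8%, had GFP 5 at -96.1 and GFP 6 at 97.2. Summaries that rest on GFP 1 and GFP 2 are also given without them, a choice made after the data were seen. No pair of libraries agreed within sampling noise: chi-square per degree of freedom was at least 339 in all 15 pairs. The scaling factors ran from 0.869 in GFP 5 to 1.18 in GFP 6, so the choice of scaling shifts all genes of those libraries. Batch, date and lane of the libraries are not in the labels.

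The tumours held markers of the melanocyte lineage. Every tumour held mitfa, with 269, 492, 326, 234, 298 and 166 CPM in GFP 1 to GFP 6, and sox10, with 199, 339, 603, 531, 604 and 364 CPM. Counts of mitfa from the vector and from the genome cannot be told apart, so its presence alone does not mark the lineage. The pigment gene pmela was present in all 6 tumours, the lowest value being 436 CPM. Of 61 skeletal muscle genes, 18 reached a mean of 1 CPM. The defining markers acta1b, ckma and mylpfa were among the low ones, with 0.444 to 1.49 CPM, 0.571 to 1.54 CPM and 0.166 to 1.21 CPM. Others of the list were higher, with 14 to 365 CPM for hhatla, 99.2 to 243 CPM for the enolase gene eno3 and 5.42 to 22.9 CPM for the myosin light chain gene mylz3. The largest, atp2a1, overlaps hsp70.1, hsp70.2 and hsp70.3 in the annotation, so its counts are uncertain.

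Among the 27827 listed genes, no small set dominated the counts of a melanoma. Genes of mitochondrial DNA were not analysed here, so this describes the gene counts and not all RNA of a tumour. The number of genes that together held 50% of a library's counts was 786, 957, 930, 771, 632 and 1161 in GFP 1 to GFP 6, with a median of 858. The 10 largest genes of each library took 5.06% to 8.65% of its counts. GFP 5 was the most concentrated and GFP 6 the least. Counts are not per length, so shares rank reads and not transcripts, and long genes gain from it.

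The 20 genes with the largest mean share held 8.64% of counts on average, from 7.04% to 9.96% across tumours. Many encode housekeeping proteins of every cell. The first was eef1a1l1 (ENSDARG00000020850), which encodes the translation elongation factor that brings tRNA to the ribosome, with a mean of 1.46% of counts. The list went on with actb2 and actb1, the beta actins, with hsp90ab1 and hspa8, chaperones of the cytosol, with the second elongation factor gene eef2b, with UBB, a ubiquitin gene whose span overlaps ubb, and with 3 genes of ribosomal proteins (rplp0, rpsa and rpl6). The melanocyte identity of the tumours entered through 2 genes. They were pmela (ENSDARG00000091298, chromosome 11, 3234969 to 3252091 in Zv9), which encodes the fibres on which melanin is laid down, overlaps cpne5 in the annotation and ranked next after eef1a1l1, and tyrp1b (ENSDARG00000056151, chromosome 1, 18074732 to 18087943), an enzyme of melanin synthesis, which followed as the fifth.

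Among the 17 protein-coding genes of the 20, these 2 pigment genes had the widest range. In GFP 1 to GFP 6 pmela had 9019.6, 9309, 2949.9, 5905, 22459 and 436 CPM, and tyrp1b had 11046, 8229.7, 2009.5, 4876, 8753 and 237 CPM. Both were high in GFP 1, GFP 2 and GFP 5 and lowest by far in GFP 6. The kinase gene atr, a sensor of DNA damage, was also among the 20, with 402, 797, 2699, 5087, 3477 and 3397 CPM, and was low in GFP 1 and GFP 2. Further genes of the 20 were krt8, a keratin of simple epithelia, gfra1a, a coreceptor for the growth factor GDNF whose span overlaps GFRA1 (1 of 3), vps13d, and zgc:158463, which the deposited table pairs with human RNA45S5. The remaining 3 of the 20 are clone-named transcripts without a coding annotation that lie side by side on chromosome 18, between 7029382 and 7050665 (Zv9). Of these, si:dkey-238c7.13 and si:dkey-238c7.12 were present at 1936 to 6711 CPM and 2359 to 3985 CPM. Their neighbour si:dkeyp-1h4.9 had 2139, 3199, 1291, 8.04, 155 and 5938 CPM, with GFP 4 and GFP 5 far below the other 4 tumours.

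**Figure D1:**
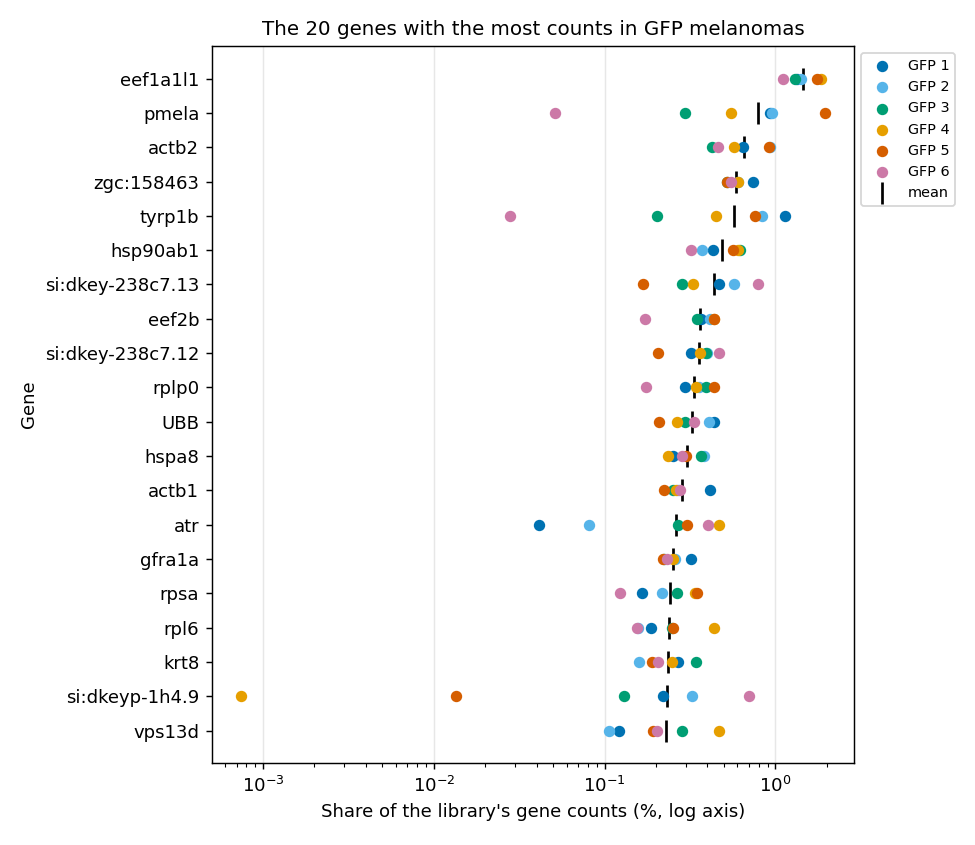
Share of each library's gene counts (%, log axis) for the 20 genes with the largest mean share, with 1 point per GFP tumour and a bar at the mean. Most genes lie within a narrow band, while pmela, tyrp1b, atr and si:dkeyp-1h4.9 spread widely, GFP 6 being lowest for both pigment genes.

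Genes of melanin production differed widely between the tumours. Of 25 melanosome and pigment genes, 17 had an SD of at least 1, where 21.8% of all 20781 genes did, and 4 had an SD of at least 2 (3.63% of all genes). Their median SD was 1.25, against 0.59 over all genes. Together these 25 genes took 2.72, 2.39, 0.832, 1.53, 3.68 and 0.287% of the counts in GFP 1 to GFP 6, so that pigment genes took the largest share in GFP 5 and the smallest in GFP 6. GFP 6 was the lowest tumour for 17 of the 25 and GFP 5 the highest for 12.

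The gene tyr, which encodes tyrosinase, the first enzyme of melanin synthesis, had 423, 717, 207, 504, 1281 and 17.1 CPM in GFP 1 to GFP 6. Its SD of 2.2 was 0.96 without GFP 6, and those of slc24a5 and tyrp1b, 2.33 and 2.1, were 0.96 and 0.98, so for these 3 genes an SD of at least 1 rested on GFP 6. The isomerase gene dct had 1351, 604, 99.6, 275, 446 and 37.7 CPM (SD 1.87, or 1.39 without GFP 6). For tyr GFP 5 was highest and for dct GFP 1, with GFP 6 lowest for both. Among the transporters of the melanosome membrane, slc24a5, the gene of the golden pigment mutant, had 578, 487, 228, 115, 451 and 8.06 CPM, and slc45a2 had 309, 385, 149, 597, 588 and 52.5 CPM. The anion transporter gene oca2 had the widest spread of the list, with 232, 443, 3.69, 13.6, 86.5 and 3.0 CPM (SD 3.08): it was low in GFP 3, GFP 4 and GFP 6 alike, while slc24a5 was far lower in GFP 6 than in any other tumour.

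Other genes of the list ranged less. The Rab27 gene rab27a had 115, 113, 125, 99.9, 151 and 74.5 CPM (SD 0.34) and trpm1b, a cation channel gene of melanocytes, 408, 345, 612, 609, 631 and 383 CPM (SD 0.4). The gene SYTL2 (1 of 2), of a Rab27-binding protein, was highest in GFP 6, at 68.9 CPM against 5.61 to 13 CPM in the other 5 tumours. In bulk tissue, fewer cells of a type and less RNA of a gene per cell cannot be told apart.

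Regulators of melanocytes and the neural crest had a median SD of 0.78, between that of the pigment genes and that of all genes. Of 16 tested, 5 (31.2%) had an SD of at least 1, against 21.8% of all genes. Their mean log2 CPM spanned 1.3-fold over the tumours, but the members had no common order (median correlation between pairs -0.04), so that span does not describe single genes. The receptor kinase gene kita, needed for melanocyte survival, had 578, 639.7, 439.6, 1390.3, 1626 and 531 CPM, with GFP 4 and GFP 5 highest. The genes tfap2a and tfap2e, of AP-2 factors that act beside Mitfa, had 99.2 to 662 CPM (SD 1.11, or 0.88 without GFP 1) and 117 to 357 CPM (SD 0.58). The foxd3 gene, which keeps neural crest cells undifferentiated, had 50.03, 58, 167, 102, 83.7 and 48.1 CPM. In GFP 6, whose pigment genes were lowest, mitfa was lowest too at 166 CPM, but sox10 at 364 CPM lay above GFP 1 and GFP 2. The list SD also depended on scaling, since its value of 0.15 moved to 0.0885 with plain total counts and to 0.42 with the median of its members.

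The gene of the kinase Braf, which is often mutated in human melanoma, was present in every tumour. In GFP 1 to GFP 6 braf had 10.2, 17.5, 20.1, 17.3, 22.9 and 16.9 CPM, with GFP 1 set apart below the rest. Targets and feedback inhibitors of the MAPK pathway downstream of it were present throughout. The phosphatase gene dusp6 had 407, 327, 962, 616, 526 and 539 CPM, the phosphatase gene dusp4 342, 163, 299.6, 305, 178 and 234 CPM and the inhibitor gene spry4 82.5, 73.7, 183, 278, 238 and 329 CPM. The cell-cycle gene ccnd1 had 44.4, 51.4, 262, 131, 112 and 85.3 CPM, highest in GFP 3. Of 19 tested MAPK genes, 6 (31.6%) had an SD of at least 1, against 21.8% of all genes, and their summed level was 1605, 1301, 2934, 2524, 2180.0 and 1970.5 CPM. Members went different ways: the inhibitor gene spry2 was lowest in GFP 1, at 17.8 CPM against 35.1 to 189 CPM in the others, and the phosphatase gene dusp5 highest there, at 76.3 CPM against 4.86 to 19.9 CPM. The mean over such members spanned 1.54-fold. Leaving out GFP 3 brought its SD of 0.21 to 0.133. The AP-1 gene fosl1a stood apart, at 157 CPM in GFP 1 against 4.98 to 17.5 CPM in the others. Without GFP 1 the SDs of spry2, dusp5 and fosl1a were 0.98, 0.82 and 0.81.

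Other pigment-cell genes were found in the tumours, but several were below 1 CPM in some of them. The xanthophore genes xdh (0.105 to 1.82 CPM) and pax7b (0.164 to 2.74 CPM) had means below 1 CPM and were not tested. Of 7 iridophore genes, pnp4a, a gene of the purine metabolism that feeds reflective crystals, had 65.1, 144, 166, 52.2, 347 and 70.11 CPM, and the receptor kinase gene ltk had 10.1, 43.2, 27.8, 50.4, 33 and 35.1 CPM. The homeobox gene alx4a had 8.18, 129, 205, 320.1, 104 and 444 CPM, far lower in GFP 1 than elsewhere. Of 9 xanthophore genes, gch2, which makes the pteridine pigment precursor, had 79.4, 1030.1, 19.9, 146, 325 and 57.2 CPM, and aox3 37.9, 62.5, 3.45, 0.912, 6.6 and 0.711 CPM, both highest in GFP 2. GFP 2 was highest for 6 of the 9. Without GFP 2 the list's SD fell to 0.62, against 1.0 with it. The iridophore list's SD of 0.82 fell to 0.442 without GFP 1.

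Over all genes, 4538 of 20781 (21.8%) had an SD of at least 1 and 755 (3.63%) an SD of at least 2. The median SD was 0.59 and the upper decile 1.39. The common biological coefficient of variation in edgeR was 0.587. The variable genes were most often highest in GFP 1 (1204 of 4538) and GFP 6 (998), and most often lowest in GFP 4 (1470). Of all genes, 1096 (5.27%) had 1 tumour set apart from the other 5, meaning a gap past Dixon's 95% limit for 6 values. Without both GFP 1 and GFP 2 the number of variable genes was 3901.

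The 24 genes with the widest spread among well-named genes at a mean of 10 CPM or more had SDs of 3.22 to 4.83, and the next gene outside the list 3.2. They were chosen by this spread, so their ranges are a description. All 24 kept an SD of at least 2 whichever tumour was left out, the lowest being 2.06. Without both GFP 1 and GFP 2, 18 of the 24 did, and 22 kept an SD of at least 1. The spans of kctd4 and bmp3 overlap gtf2f2b and C5H4orf22, so their counts are uncertain.

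A first set was high in GFP 1 and GFP 2. The triglyceride synthesis gene dgat2 (ENSDARG00000018846, chromosome 10, 33452160 to 33478826, Zv9) had 1042, 1089, 5.06, 2.29, 6.19 and 1.73 CPM in GFP 1 to GFP 6. The gene crhbp, whose product binds and blocks corticotropin-releasing hormone, had 266, 389, 0.617, 1.47, 11.9 and 1.71 CPM, and npb, a neuropeptide gene, 272, 62.4, 1.02, 0.284, 2.02 and 0.292 CPM. In these 3 genes GFP 1 and GFP 2 stood above every other tumour. The growth factor gene bmp3 had 20.8, 44.9, 1.476, 0.0748, 0.574 and 0.482 CPM, with the same 2 tumours on top. This set rested on those libraries: without both, the SD of dgat2 was 0.88, of npb 1.37, of crhbp 1.79 and of bmp3 1.69.

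A second set was high in GFP 1, GFP 2 and GFP 5, the 3 tumours with the most pmela. The retinoid isomerase gene rpe65a (ENSDARG00000007480, chromosome 2, 2448547 to 2463377, Zv9), best known from the pigment epithelium of the eye, had 50.5, 87.4, 0.738, 0.194, 528 and 0.559 CPM. The carotene-cleaving enzyme gene bcmo1 had 231, 332, 8.73, 0.957, 169 and 0.914 CPM. The melanocortin receptor gene mc5ra had 191, 216, 1.19, 0.538, 71.2 and 2.04 CPM. Also of this set were GPR17 (1 of 2), with 36.7, 123, 2.06, 0.508, 74.8 and 2.54 CPM, and the flippase gene atp8b5b, with 36.6, 11, 1.17, 0.269, 150.0 and 0.851 CPM, highest in GFP 5. In all 5 genes GFP 3, GFP 4 and GFP 6 lay below the other tumours.

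Another set, led by developmental transcription factors, had the opposite pattern. The paired-box gene pax8 (ENSDARG00000015879, chromosome 5, 75545967 to 75551160, Zv9), known from thyroid and kidney, had 0.293, 0.196, 87.6, 39.7, 0.525 and 48.5 CPM, and the homeobox gene dlx1a, known from the forebrain, 0.703, 0.0842, 109.7, 28.2, 0.46 and 29.2 CPM. Both were below 1 CPM in GFP 1, GFP 2 and GFP 5. The forkhead gene foxd2, at 0.483, 0.196, 48.5, 12.9, 0.263 and 26.1 CPM, and the ammonium transporter gene rhbg, at 1.43, 1.09, 148, 75.9, 3.51 and 80.9 CPM, had the same 3 tumours on top. The homeobox gene irx1a had 0.278, 1.7, 90.1, 100.3, 4.33 and 57.8 CPM, high in those 3 also. The homeobox gene dbx1b had 0.0878, 59.5, 110.5, 22.8, 3.82 and 117 CPM, low in GFP 1 and GFP 5.

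The remaining genes had patterns of their own. The gene MIA, named for a secreted protein used as a blood marker of human melanoma, had 0.161, 1.5, 53.8, 21.3, 60.8 and 67.8 CPM, nearly absent in GFP 1 and GFP 2, with an SD of 0.77 without both. The synaptic vesicle gene sypa had 0.732, 0.547, 23.3, 98, 89.3 and 34.6 CPM, low in the same tumours, with an SD of 1.02 without them. The vesicle fusion gene cplx2 was high in GFP 3 and GFP 6, with 0.981, 2.08, 468, 1.82, 1.71 and 99.3 CPM. The matrix gene hapln1a, whose product links hyaluronan to proteoglycans, had 3.51, 445, 3.18, 0.882, 1.38 and 102 CPM, high in GFP 2 and GFP 6. The widest SD was that of kctd4, with 0, 2.69, 94.9, 0.972, 0 and 0.889 CPM and GFP 3 far above the rest. At 0 CPM the log2 value is set by a prior count of 1, added before taking logs, so this SD depends on it. The bile acid synthesis gene cyp7a1a had 22, 19.3, 10.7, 0.329, 0.0657 and 13.4 CPM, lowest in GFP 4 and GFP 5.

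**Figure D2:**
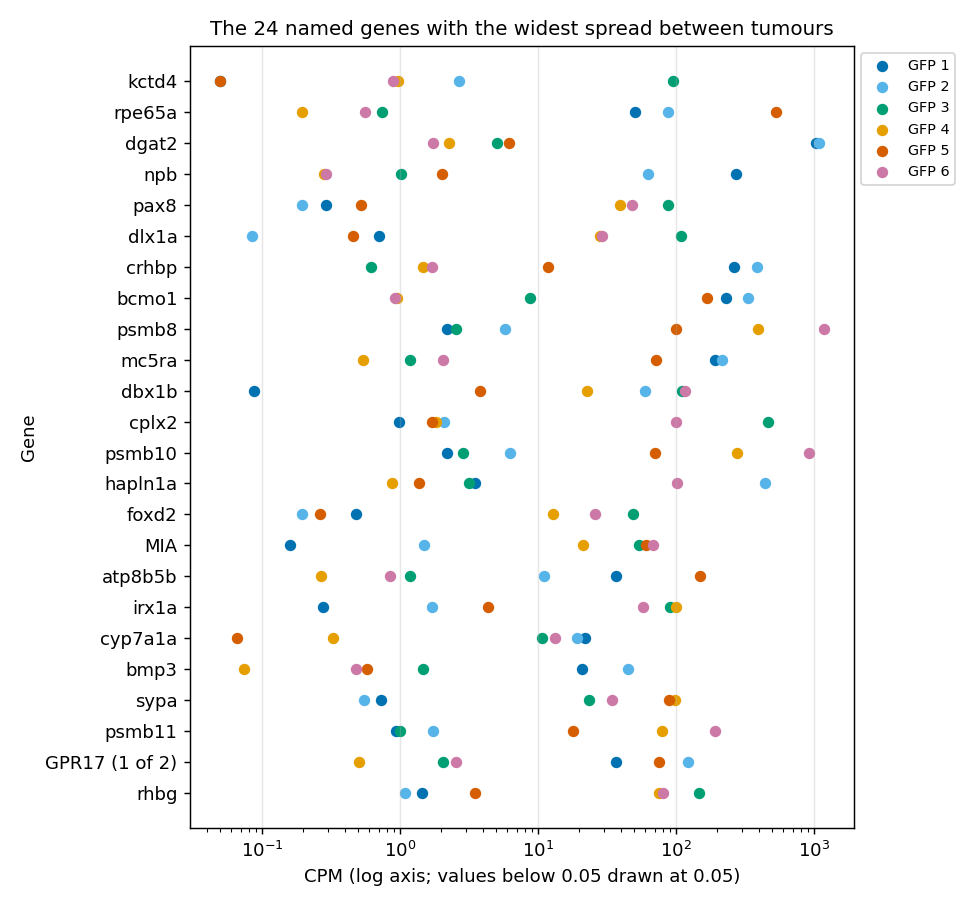
CPM (log axis) of the 24 named genes with the widest spread, with 1 point per GFP tumour and values below 0.05 CPM drawn at 0.05. Tumours split into a high and a low set that differs from gene to gene: GFP 1 and GFP 2 are together at the top for dgat2 and crhbp and at the bottom for pax8, MIA and sypa.

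Genes of the immunoproteasome, the form of the proteasome that cuts proteins for display to T cells, split the tumours into 3 high and 3 low. The subunit gene psmb8 (ENSDARG00000001303, chromosome 19, 7728374 to 7767084, Zv9) had 2.21, 5.78, 2.53, 396, 99.6 and 1183 CPM, and psmb10 had 2.2, 6.23, 2.85, 277, 70.5 and 927 CPM. Next to them psmb9a had 1.11, 2.75, 1.476, 59.17, 11.8 and 209.8 CPM, psmb11 0.937, 1.74, 0.994, 79.4, 17.8 and 191 CPM and abcb3l1, listed today as the peptide transporter gene tap2a, 1.52, 5.08, 2.02, 51.3, 17.8 and 266 CPM. In all 5 genes GFP 4, GFP 5 and GFP 6 stood far above GFP 1, GFP 2 and GFP 3. The annotated spans of these 5 genes overlap, so reads could be shared or lost between them, and they are not 5 independent values. On their other side lies mhc1uba, a class I antigen gene, with 463, 1271, 801, 31.8, 196 and 94.5 CPM: it was high in the 3 tumours where the subunit genes were low. Both kinds of gene lie within chromosome 19, 7695390 to 7767121.

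Interferon-responsive and other antigen presentation genes had other orders. The interferon-activated transcription factor gene stat1b had 152, 578, 149, 226, 182 and 684 CPM, highest in GFP 2 and GFP 6, and b2m, the light chain of class I molecules, had 963, 2014, 1294, 696, 565 and 2100.2 CPM. Outside the region psme1, a proteasome activator gene, had 106, 217, 194, 160.0, 106 and 379 CPM, and tap1, the partner of the Tap2 transporter, 17.3, 39.8, 14, 25.1, 17.4 and 39.9 CPM. Of 32 tested antigen presentation genes, 12 had an SD of at least 1, against 21.8% of all genes. These 12 included the 6 genes of the region just named, neighbours of which most overlap. They are not independent values, so the share is not that of separate genes. An SD of at least 2 was reached by 7, against 3.63% of all genes, among them the same 6. The list's SD of 0.69 fell to 0.34 without GFP 6.

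Neighbouring genes on chromosome 6 were raised together in GFP 5. The search for such runs was made after the values of rplp2 and rps26l had been seen. Each tumour was set against the median of the other 5 for 14368 genes with a mean of at least 5 CPM on the 25 chromosomes, in the order of their position. A run was 4 or more consecutive genes at least 4-fold higher or lower. In GFP 5 there were 5 such runs on chromosome 6, with 52 genes in all, all higher. The longest held 20 genes in a row, between 49454476 and 50365500 (Zv9), with a median of 10.4-fold and a range of 4.42 to 14.5-fold. Another held 13 genes between 19951106 and 20910437, with a median of 6.67-fold. The longest run anywhere else, in any tumour, held 8 genes.

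Genes of unrelated function shared these runs. Within the 20-gene run, gnas, which encodes the G protein subunit that couples melanocortin receptors to cAMP, had 52.3, 60.7, 68.1, 102, 671 and 46.6 CPM in GFP 1 to GFP 6. The vesicle transport gene vapb had 49.6, 75.4, 87, 123, 760.2 and 53.9 CPM, and ahcy, an enzyme of the methionine cycle, 107, 149, 317, 494, 1817 and 130.2 CPM. A GFP 5 value at least 4-fold above the median of the others was built into the run. In each of these genes GFP 4 came next. The mitochondrial genes of the run were cyc1, cytochrome c1 of complex III, with 77.1, 127, 122, 238, 1185 and 81.9 CPM, ATP5EP2, an ATP synthase subunit gene, with 46.6, 58.5, 67.3, 97.3, 637 and 48.3 CPM, and ROMO1, with 69.7, 100.2, 123, 168, 1379 and 74.9 CPM. A separate run of 6 genes, between 33583527 and 33645524, held orc1, a subunit of the origin recognition complex, with 10.6, 18.1, 40.4, 39.7, 156 and 16.1 CPM, and the histone chaperone gene nasp, with 24, 57.4, 114, 143, 802 and 56.2 CPM.

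Several gene lists had wide members in these runs, and the spread of those members rested on GFP 5. Of 85 cytosolic ribosomal protein genes tested, 2 (2.35%) had an SD of at least 1, against 21.8% of all genes. These were rplp2, with 249.9, 277, 308, 458, 3305 and 177 CPM, and rps26l, with 327, 407, 503, 954, 5921 and 226 CPM, both in the 20-gene run. Without GFP 5 their SDs were 0.5 and 0.77. Of the 9 respiratory chain genes with such an SD, cyc1 and ATP5EP2 lay in it, with SDs of 0.65 and 0.43 without GFP 5. The largest SD of the 49 DNA replication genes was that of orc1, 1.39, or 0.85 without GFP 5. Over all of chromosome 6, 83 of 606 genes (13.7%) were at least 4-fold higher in GFP 5 than the median of the others, against 1.28% of its genes on other chromosomes. Without GFP 5 the longest run held 8 genes, and with plain total counts 14. The next highest share for any chromosome in any tumour was 6.09%.

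Whole chromosomes were shifted by smaller amounts. In GFP 4, 83.3% of 642 chromosome 8 genes lay above the median of the other 5 tumours, with a median log2 difference of 0.80, against 53.5% of its genes elsewhere. Chromosome 6 was also higher in GFP 4, with 78.9% of genes above, against 53.8% elsewhere, and a median of 0.74. In GFP 3, 77.6% of 411 chromosome 24 genes lay above the others, against 52.2% elsewhere (median 0.64). There 11.9% of 427 chromosome 15 genes did, against 54.2% elsewhere (median -0.55). In GFP 6 chromosome 22 was low, with 26.1% of 560 genes above, against 46.4% elsewhere, and a median of -0.65. Of 150 pairs of a chromosome and a tumour, 18 had a median beyond 0.4 in either direction. DNA from these tumours was not analysed here, and no test was made of these shifts.

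**Figure D3:**
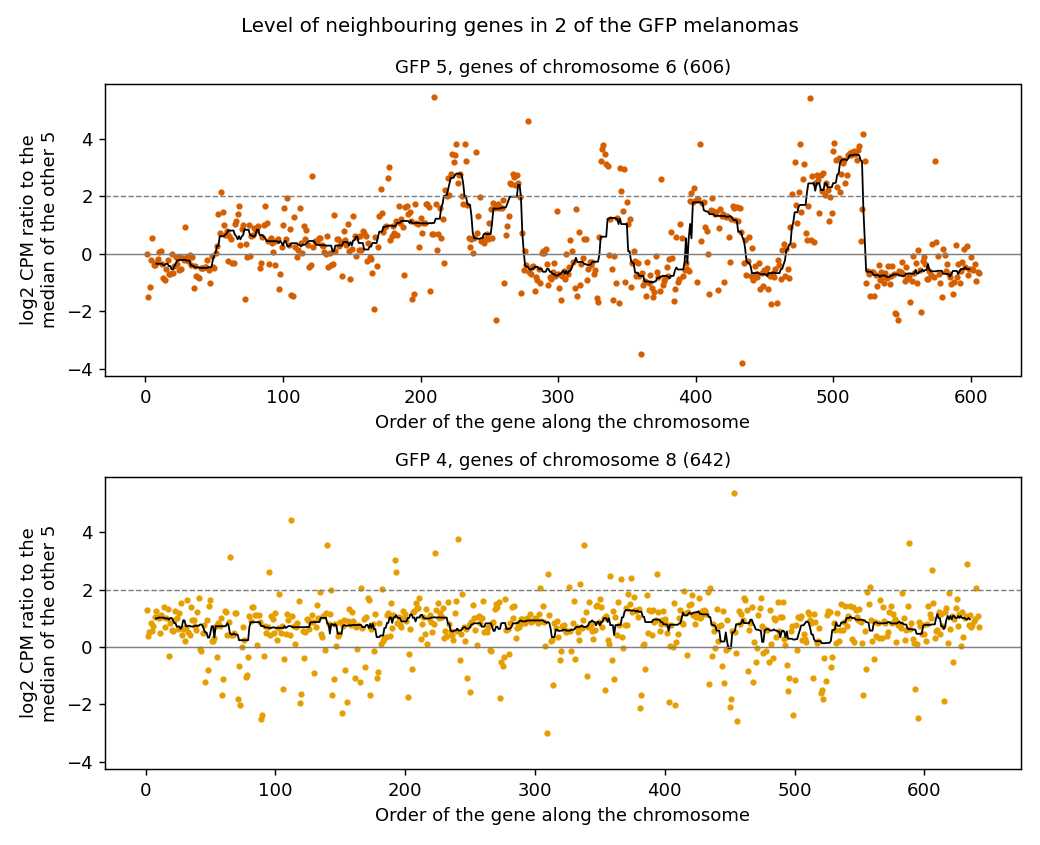
Log2 ratio of CPM to the median of the other 5 tumours for genes in their order along a chromosome, for chromosome 6 in GFP 5 (606 genes) and chromosome 8 in GFP 4 (642 genes); points are genes, the black line is a running median over 15 genes, and the dashed line marks 4-fold. In GFP 5 the line moves in steps with blocks above 4-fold, while in GFP 4 it stays above 0 along nearly the whole chromosome.

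Genes of skin, blood and inflammation were on average highest in GFP 1. The erythrocyte genes had the widest list SD of the 36 lists, 1.42. All 13 tested had an SD of at least 1, against 21.8% of all genes. Their summed level was 9213, 2254, 174, 1443, 323 and 626 CPM in GFP 1 to GFP 6. Nearly all of this came from the globin genes hbaa1, with 4483, 1111, 72.8, 705, 149 and 286 CPM, and ba1, with 4335, 1054, 70.4, 683, 144 and 284 CPM, whose spans overlap. The heme synthesis gene alas2 had 122, 20.5, 4.35, 7.95, 3.51 and 11.7 CPM, so it too was highest in GFP 1 and next in GFP 2. Without GFP 1 the list SD was 0.783.

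Most epidermal genes shared the order of the tumours. Of 34 tested, 19 had an SD of at least 1, against 21.8% of all genes, and GFP 1 was highest for 30 of the 34. Their summed level was 15413, 5861, 3808, 3492, 6538 and 5347 CPM. The basal keratin gene krt5 had 4093, 1537, 878, 661, 820.1 and 1514 CPM, the surface keratin gene krt4 1089.8, 305, 99, 122, 182 and 125 CPM, and cdh1, the epithelial cadherin gene, 493, 306, 102, 147, 259.6 and 51.7 CPM. For krt5 and krt4 GFP 1 lay well above every other tumour, while icn, a calcium-binding gene of the list, was highest in GFP 5 at 3074 CPM. The median correlation between pairs of these genes was 0.81, against 0 over pairs of all genes, and the list's SD of 0.89 fell to 0.58 without GFP 1, where that of krt4 was 0.64.

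Immediate early genes, which cells switch on within minutes of growth signals or stress, showed the same tumour on top. GFP 1 was highest for 22 of 26, and 17 of 26 had an SD of at least 1, against 21.8% of all genes. The AP-1 gene fosb had 122, 10.1, 3.43, 2.56, 4.2 and 4.89 CPM and the zinc finger gene egr1 179, 62.1, 34.2, 18.3, 24.4 and 35.6 CPM. The summed level of the list was 2981, 1530.5, 1119.7, 839, 1061 and 1252 CPM. Its SD of 0.92 fell to 0.482 without GFP 1, and the SDs of fosb and egr1 were then 0.74 and 0.66. The part of epidermis and blood in these values was not tested.

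Inflammation genes spanned 10.1-fold as a list, from GFP 4 at the bottom to GFP 1 at the top. GFP 1 was highest for 9 of the 17 tested and GFP 4 lowest for 11. Others had another order, such as saa, with 36.1, 66.8, 3.89, 5.49, 3.63 and 62.8 CPM in GFP 1 to GFP 6. The cytokine gene il1b had 260.4, 56.3, 68.3, 5.23, 7.89 and 31.5 CPM and ptgs2a, which encodes the enzyme that starts prostaglandin synthesis, 139.6, 29.3, 11.8, 2.48, 5.45 and 29.2 CPM. The collagenase gene mmp13a had 508, 86.3, 4.58, 2.59, 5.61 and 17.3 CPM and the gelatinase gene mmp9 713, 101, 21.7, 50.8, 30.3 and 67.9 CPM, the last with an SD of 0.89 without GFP 1. These 2 protease genes were listed with the neutrophil markers, but the neutrophil enzyme gene mpx had 12.3, 27.9, 5.36, 5.26, 5.07 and 25.7 CPM, highest in GFP 2 and GFP 6. The summed level of the 14 neutrophil genes was 1494, 529, 115, 119.8, 128 and 278 CPM. Most of the GFP 1 sum came from mmp9 and mmp13a, and GFP 1 was highest for only 6 of the 14. That sum thus does not give the order of the other neutrophil genes. The part of neutrophils in the inflammation values was not tested.

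Macrophage and B cell genes were highest on average in GFP 6 and GFP 2, and T and NK cell genes in GFP 6 with GFP 1 and GFP 2 next. The perforin-like macrophage gene mpeg1 had 47.5, 102, 47.2, 53.8, 41 and 132 CPM, and marco, a scavenger receptor gene, 134, 277, 164, 68.1, 73.7 and 263 CPM. The T cell gene cd8a had 4.19, 11.9, 2.08, 0.957, 0.509 and 22.2 CPM and zap70, a kinase of the T cell receptor, 15.1, 29.3, 9.4, 4.78, 4.87 and 34.4 CPM. The antibody heavy chain gene ighm had 453, 822, 184, 189, 36.8 and 649 CPM and the B cell receptor gene cd79a 1.61, 3.65, 0.828, 2.5, 0.968 and 6.04 CPM, though ighm overlaps many variable segments and is uncertain. GFP 6 was highest for 11 of 15 B cell genes and 13 of 22 T and NK cell genes. The summed level of the 34 macrophage genes was 4025, 6802, 2617, 1581, 2816 and 6942 CPM and that of the 22 T and NK cell genes 593, 431, 849, 252, 368 and 509.6 CPM. The T cell kinase gene lck had another order, with 122, 96.3, 16.3, 8.37, 11.5 and 37.5 CPM and GFP 1 on top, and runx3, also in the list, was highest in GFP 3 at 738 CPM.

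Interferon-responsive genes were likewise highest in GFP 2 and GFP 6. The antiviral gene mxb had 72.7, 454, 107, 90.7, 24.6 and 685 CPM, the antiviral gene rsad2 16.1, 72.4, 6.75, 26.5, 16.6 and 62.8 CPM, and the ubiquitin-like gene isg15 235, 438, 106, 133, 217 and 402 CPM. Of 33 tested, 14 had an SD of at least 1, against 21.8% of all genes. The summed level was 2096, 6378, 2266, 3004, 2346 and 6420.2 CPM, so that GFP 2 and GFP 6 formed a pair apart from the other 4 tumours. The part of the immune cells in these values was not tested.

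Endothelial genes reached an SD of 1 about as often as all genes, with a higher median SD. Matrix genes reached it more often. Of 28 endothelial genes 5 (17.9%) had an SD of at least 1, against 21.8% of all genes. The median SD of the 28 was 0.84, against 0.59 over all genes. GFP 1 was highest for 19 of the 28, and their mean log2 CPM spanned 2.57-fold. The receptor gene kdrl had 52.5, 32.4, 12.6, 17.5, 11.9 and 11.7 CPM, highest in GFP 1 and GFP 2. The gene cdh5 of the same list had another order, with 1.95, 5.01, 5.33, 14.4, 3.18 and 3.53 CPM, highest in GFP 4 and lowest in GFP 1. Of 34 fibroblast and matrix genes 22 (64.7%) had an SD of at least 1. Collagen I, the main fibre of dermis, was represented by col1a1a with 248, 97.2, 100.2, 54, 62.9 and 125 CPM. GFP 4 was the lowest tumour for 18 of the 34. The periostin gene postna stood apart at 103 CPM in GFP 3 against 2.5 to 8.44 CPM elsewhere. Genes of the liver were low, with summed values of 12.7 to 98.6 CPM for the 9 liver genes.

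**Figure D4:**
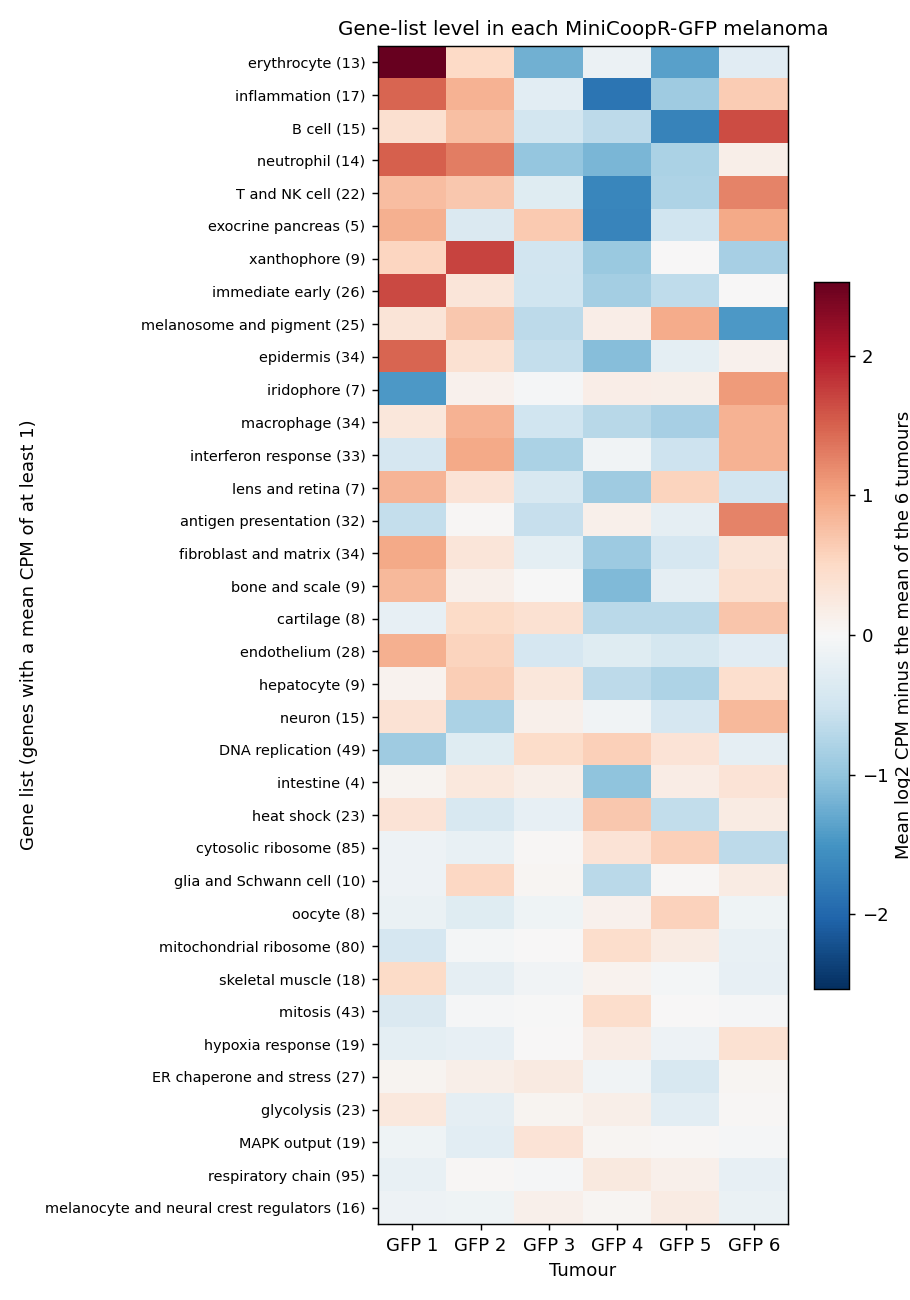
Mean log2 CPM of the members of each of the 36 gene lists in each GFP tumour, minus the list's mean over the 6 tumours, ordered from the widest to the narrowest spread; the number of genes is in parentheses. Blood, epidermis, immediate early and inflammation genes are highest in GFP 1, T cell, B cell and antigen presentation genes in GFP 6, and the lists at the bottom are nearly even.

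Mitosis and respiratory chain genes were less variable than most genes. For DNA replication and glycolysis genes the share with an SD of at least 1 and the median SD pointed different ways. None of 43 mitosis genes had an SD of at least 1, against 21.8% of all genes. Their list SD of 0.26 was 0.158 without GFP 4, and the proliferation marker MKI67 had 89, 164, 130.3, 277, 156 and 214 CPM in GFP 1 to GFP 6. Of 49 DNA replication genes 6 (12.2%) had an SD of at least 1, a smaller share than the 21.8% of all genes. The median SD of the 49, 0.68, lay above the 0.59 of all genes. The sliding clamp gene pcna had 88, 174, 322, 318, 276 and 206 CPM and the helicase gene mcm4 76.9, 117, 462, 286, 159.6 and 147 CPM, both lowest in GFP 1, which was lowest for 36 of the 49.

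Respiratory chain genes had a median SD of 0.36, against 0.59 over all genes, and 9 of 95 (9.47%) reached 1, against 21.8% of all genes. The widest was sdhda, a subunit of complex II, with 0.161, 0.0842, 0.422, 0.897, 0.279 and 5.59 CPM and an SD of 2.06, or 1.23 without GFP 6. Their summed level was 6786, 8214, 7470.1, 9907, 10512 and 6108 CPM. The ATP synthase gene ATP5B had 581, 649, 535, 977, 894 and 412 CPM, and none of 80 genes of the mitochondrial ribosome reached an SD of 1. Of 23 glycolysis genes 6 (26.1%) had an SD of at least 1, against 21.8% of all genes. The median SD of these 23 genes, 0.55, lay below the 0.59 of all genes. Their largest member, the enolase gene eno1a, had 788, 609, 577, 1319, 622 and 757 CPM, with GFP 4 highest. Cytosolic ribosomal protein genes took 6.06% of counts in GFP 6 and 11.5% in GFP 5, and GFP 6 was lowest for 68 of the 85. Genes of mitochondrial DNA were not analysed here.

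Stress genes behaved in separate ways. In the heat shock list 8 of 23 genes had an SD of at least 1, a larger share than the 21.8% of all genes. Among these 8 were the neighbours hsp70.1, hsp70.2 and hsp70.3, which overlap atp2a1 in the annotation. They are not independent values, so the share overstates the number of separate variable genes. The inducible chaperone gene hsp70l had 181, 42.3, 45.9, 406, 10.4 and 135 CPM, high in GFP 4 and low in GFP 5. Of 27 endoplasmic reticulum genes 1 had such an SD, ero1l, an oxidase of protein folding, with 7.5, 5.15, 7.53, 7.81, 26.4 and 148 CPM and GFP 6 on top (SD 0.9 without it), and the chaperone gene hspa5 had 444, 567, 380.2, 425, 318 and 299 CPM. The median SD of 19 hypoxia genes, 0.80, lay above the 0.59 of all genes. An SD of at least 1 was reached by 3 of them, a smaller share than among all genes. These 3 included vegfab, a vessel growth factor gene, with 4.11, 13.8, 2.97, 11.2, 9.01 and 45.8 CPM (SD 0.95 without GFP 6).

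The steadiest genes among 1738 well-named ones with a mean of at least 100 CPM had SDs of 0.09 to 0.15. The ubiquitin gene ubc had 1137, 1029, 1214, 1063, 1139.5 and 1184 CPM in GFP 1 to GFP 6, and prkcsh, a glucosidase subunit of the endoplasmic reticulum, 119, 127, 127, 108, 122 and 119 CPM. The dynein regulator gene pafah1b1b had 127, 111, 108, 123, 121 and 119 CPM. The other 7 of the 10 steadiest were csnk1db, wasf2, skp1, ppt1, sh3bgrl3, xpo1a and SLC29A2 (3 of 3), of which wasf2, ppt1 and SLC29A2 (3 of 3) overlap other genes. The actin genes often used for scaling had SDs of 0.57 for actb2 and 0.28 for actb1.

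Relations between lists were computed for 8 pairs over the 6 tumours, with p-values adjusted over the 8 by the Benjamini-Hochberg method. None passed an adjusted p of 0.05, the smallest being 0.108 for Pearson's r and 0.133 for Spearman's rho. DNA replication and mitosis gave r = 0.82 with an exact permutation p of 0.0347 and rho = 0.94 with an exact permutation p of 0.0167 (adjusted p of 0.108 and 0.133), and r = 0.80 without the 2 tumours farthest from the median, GFP 1 and GFP 4. Macrophage and T and NK cell genes gave r = 0.90 with an exact permutation p of 0.0319 and rho = 0.89 with an exact permutation p of 0.0333 (adjusted p of 0.108 and 0.133), and r = 0.87 without GFP 6 and GFP 2. Pigment genes against the regulators gave r = 0.38 with an exact permutation p of 0.453 and rho = 0.49 with an exact permutation p of 0.356 (adjusted p of 0.587 and 0.569), and r = 0.50 without GFP 6 and GFP 3. That r was -0.151 without GFP 6 alone and -0.714 with plain total counts, so its sign rested on both. Pigment genes against mitosis gave r = -0.01 with an exact permutation p of 0.981 and rho = -0.03 with an exact permutation p of 1 (adjusted p of 0.981 and 1), and r = -0.26 without the same tumours. It was above 0 without GFP 1 (0.162), GFP 2 (0.0477) or GFP 3 (0.00642). Respiratory chain against glycolysis gave r = -0.33 with an exact permutation p of 0.514 and rho = -0.20 with an exact permutation p of 0.714 (adjusted p of 0.587 and 0.952), and r = -0.94 without GFP 4 and GFP 6, the size of r thus resting on those tumours. Epidermis against muscle gave r = 0.48 with an exact permutation p of 0.328 and rho = -0.09 with an exact permutation p of 0.919 (adjusted p of 0.524 and 1), and r = -0.83 without GFP 1 and GFP 4, and r = -0.932 without GFP 1 alone. The pairs of interferon with antigen presentation and of fibroblast with endothelium are not given, because the tumours fell into separate clusters on a score.

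The 600 most variable genes at a mean of at least 5 CPM were grouped by their correlation over the tumours. Clustering gave 9 groups of at least 15 genes, which held 365 of the 600. They were found in the same values they describe, so they carry no test. Without both GFP 1 and GFP 2, the median SD of the members was 1.72 in the largest group, 0.94 in the second and 1.05 in the group low in both, against 2.35, 2.14 and 2.24 with them. Over pairs of all genes with an SD of at least 1, 12% had r of at least 0.7.

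The largest group, of 86 genes, was high in GFP 1 and GFP 2 and held rpe65a, crhbp, bcmo1 and mc5ra. With them were oca2 and the xanthophore gene aox3, the melanopsin gene opn4b, and sncga, a synuclein gene with 340.4, 121, 63, 1.53, 91.7 and 9.28 CPM. The second, of 67 genes, was highest in GFP 1 with GFP 2 next. It held dgat2 and npb, 6 erythrocyte genes, 3 neutrophil genes and the immediate early gene fosb, and 9 of its genes lay on chromosome 12. A run of 8 clone-named neighbours on that chromosome, described at the end, also had GFP 1 and then GFP 2 on top. Such neighbours can share reads. Other members of the group were dab2, an endocytic adaptor gene with 45.9, 14.1, 0.271, 0.284, 1.56 and 0.444 CPM, and the endothelin receptor gene ednrb1b with 24.1, 4.42, 0.211, 1.88, 1.28 and 0.901 CPM.

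A group of 56 genes was high in GFP 3 and GFP 6. It held pax8, dlx1a, foxd2 and cplx2, and beside them the homeobox gene dlx2a, the receptor kinase gene ret with 2.69, 0.519, 42.4, 3.69, 6.88 and 16.7 CPM, and fabp7a, a fatty acid binding gene of glia, with 0.293, 13.6, 105, 22.8, 3.05 and 40.6 CPM. A group of 26 genes, low in GFP 1 and GFP 2, held MIA, irx1a and sypa, and also ntng2a, a netrin-like gene, with 1.52, 2.01, 46.5, 321, 26.5 and 138 CPM. The Wnt inhibitor gene dkk1a of this group had 0.922, 9.92, 269, 179.7, 16.2 and 71.1 CPM.

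Of 50 genes that were high in GFP 2 and GFP 6, 3 were T and NK cell genes, cd8a among them. The chemokine gene cxc64 had 12.8, 45.2, 0.286, 0.972, 0.837 and 26.9 CPM and cpe, a gene of hormone processing, 16.7, 121, 6.91, 1.02, 3.38 and 167 CPM. A group of 29 genes, high in GFP 1 and GFP 5, held the macrophage growth factor gene csf1a with 10.2, 0.505, 0.301, 0.284, 22.1 and 0.152 CPM, and hoxc11b and hoxc12b, homeobox genes of the posterior body. A group of 21 genes was set apart by its low value in GFP 6. It held pmela, tyrp1b, tyr, dct, slc24a5 and rab38a of the pigment list, and with them the hormone receptor gene mchr2 at 52.5, 68.4, 6.99, 23.4, 72.9 and 0.508 CPM and adssl1, a purine nucleotide enzyme gene, at 78.2, 170.4, 57.9, 174, 297 and 2.69 CPM. The last 2 groups, of 15 genes each, were high in GFP 3 (lad1, lmo7b) and in GFP 1, GFP 4 and GFP 5, the second of them with 10 of its 15 genes on chromosome 22. A run of 9 neighbouring genes on that chromosome, described at the end, was also high in GFP 1, GFP 4 and GFP 5.

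**Figure D5:**
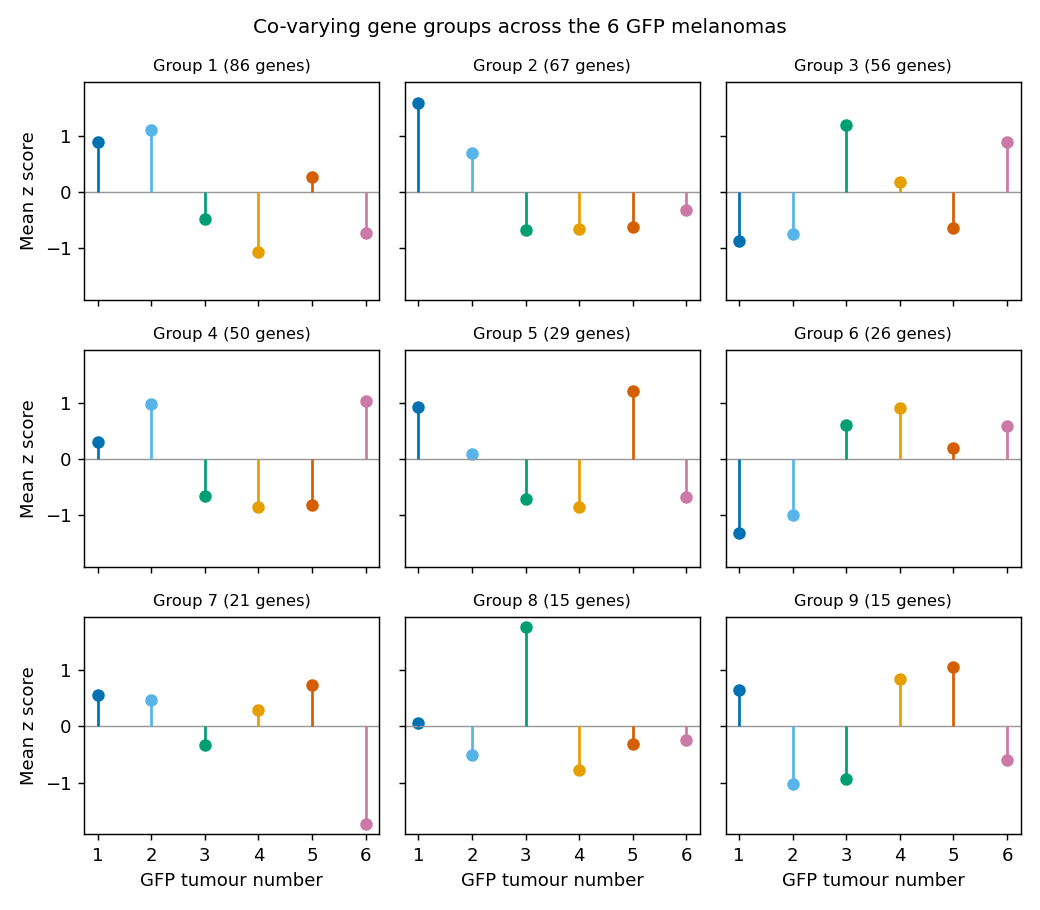
Mean z score (each gene's log2 CPM minus its mean, over its SD) of the members of the 9 co-varying groups in each GFP tumour. Groups 1 and 2 are high in GFP 1 and GFP 2, group 6 is low in both, group 7, with 6 pigment genes, is low in GFP 6, and group 8 is high in GFP 3.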

How the data were processed

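RNA-seq of 6 MiniCoopR-GFP zebrafish melanomas was used, grouped by the genotype label and titles. The authors deposited a table of raw gene counts and, beside them, size-factor-normalized counts (a signal with no fixed total). Per the submitters' processing notes, STAR 2.6.1d, HTSeq 0.6.0 and DESeq2 were used with the Zv9 build. Annotation release and strand setting were not found in the labels or headers. Symbols and positions come from the deposited table, and 68.5% of the IDs have an entry in a current name table.

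The counts of the 6 libraries were scaled by TMM (edgeR 4.0.16, R 4.3.3) on these libraries alone, given as CPM and as log2 CPM with a prior count of 1. The authors' normalized values served as an alternative scaling. Described were genes with a mean of at least 1 CPM, by the SD over tumours. A list's score was the mean log2 CPM of its members. Clustering used average linkage on 1 minus Pearson's r at a distance of 0.3. Correlations had two-sided exact permutation tests over 720 pairings. Other tools were DESeq2 1.42.0, Python 3.11.15, numpy 2.4.6, pandas 2.3.3, scipy 1.17.1 and matplotlib 3.10.9. The steps were tested on simulated data.

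Named genes were the 20 with the largest mean share, the 24 with the widest SD at 10 CPM or more, the 10 steadiest at 100 CPM or more, the leading members of each list and group, and fixed markers. Any others were chosen after their values were seen, among them the chromosome 6 genes. The members and lists were chosen with earlier results of these data known, and 2 list members were dropped because the table pairs them with another gene. Alternatives were other scalings, prior counts, filters, spread measures and leaving out tumours. The other 6 tumours and genes of mitochondrial DNA were not analysed here.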

Additional observations from a re-analysis of the deposited data

Results flagged for a closer look

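In 21 of the values described, 1 tumour lay so far from the other 5 that the gap to its neighbour took more of the range than Dixon's 95% limit for 6 values allows. Chance alone sets apart about 1 value in 20 in this way, and among all 20781 genes the share was 5.27%. The values described were partly picked for wide spread or after being seen, so the 21 are not comparable with that share. The gap is given here as a share of the whole range of log2 CPM, or, for a list, of its mean log2 CPM.

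GFP 1 was apart in 7 cases. It was high for actb1 (gap 0.646), fosb (0.645) and fosl1a (0.636), and low for braf (0.6253), the iridophore genes alx4a (0.637) and ltk (0.629) and BX088649.1 (0.699). The last is named akap12a in the current gene table, and had 0.688, 18.5, 26.3, 54.7, 18.9 and 75.7 CPM in GFP 1 to GFP 6. GFP 6 was apart, at the low end, for eef2b (0.703), adssl1 (0.652) and the sugar transporter gene slc2a15b (0.637), which had 687, 501, 353, 348, 1061 and 49.4 CPM, and at the high end for SYTL2 (1 of 2) (0.666). GFP 3 was high for postna (0.673) and lad1 (0.699). GFP 5 was high for 5 genes in the run of raised genes on chromosome 6, rplp2 (0.676), gnas (0.708), ROMO1 (0.706), vapb (0.667) and ATP5EP2 (0.718). That run was defined by values at least 4-fold higher in GFP 5, so a high GFP 5 was built into it. These neighbours are not 5 independent cases. GFP 5 was low for the antibody variable segment ighv1-4 (0.712), with 7.91, 2.33, 1.28, 4.95, 0 and 5.86 CPM. The log2 value of that 0 is set by the prior count of 1, and the gap depends on it. GFP 4 was high for the lens crystallin gene crygs2 (0.691), with 4.01, 3.34, 3.99, 6.53, 3.69 and 3.22 CPM, and low for the intestine list (0.795).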

How the results depend on the processing

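Of the values recomputed under the alternatives, 597 kept their direction and stayed within 1.5 times the reported value, or on the same side of the threshold. The values that did not are given below. The alternative that moved the most was leaving out both GFP 1 and GFP 2, where 9 moved and 28 did not. The number of variable genes, 4538, became 7980 with no filter on low values and 2423 with a mean of at least 5 CPM, both of which change how many genes are counted, and ranged from 4223 to 4597 with 1 tumour left out. With plain total counts the list SD became 0.0885 for melanocyte and neural crest regulators, 0.29 for cytosolic ribosome, 0.0973 for respiratory chain and 0.341 for endoplasmic reticulum. Without a filter it became 0.64 for exocrine pancreas, 0.082 for intestine, 0.67 for glia and Schwann cell and 0.299 for lens and retina, and with a mean of at least 5 CPM 0.349 for melanocyte and neural crest regulators, 1.86 for hepatocyte, 1.84 for exocrine pancreas, 0.813 for intestine, 4.67 for lens and retina, 0.784 for oocyte and 1.09 for cartilage, where fewer members remained. The median of a list in place of its mean gave 0.422 for melanocyte and neural crest regulators, 0.481 for skeletal muscle, 0.602 for exocrine pancreas, 1.08 for glia and Schwann cell, 0.354 for glycolysis, 0.375 for endoplasmic reticulum, 0.736 for heat shock and 0.544 for MAPK output. Without both GFP 1 and GFP 2, an alternative chosen after the data were seen, the SD was 0.498 for iridophore, 0.431 for xanthophore, 0.125 for skeletal muscle, 0.509 for epidermis, 0.629 for erythrocyte, 0.585 for neutrophil, 0.0862 for endothelium, 0.372 for DNA replication and 0.371 for immediate early. Leaving out each tumour in turn gave an SD of 0.442 to 0.909 for iridophore, 0.133 to 0.308 for skeletal muscle, 0.58 to 0.985 for epidermis, 0.783 to 1.59 for erythrocyte, 0.482 to 1.03 for immediate early, 0.62 to 1.12 for xanthophore, 0.133 to 0.238 for MAPK output, 0.107 to 0.566 for intestine, 0.246 to 0.45 for glia and Schwann cell, 0.408 to 0.73 for bone and scale, 0.158 to 0.297 for mitosis, 0.148 to 0.352 for oocyte, 0.121 to 0.248 for endoplasmic reticulum and 0.34 to 0.77 for antigen presentation. The longest run of neighbouring genes held 8 to 20 genes, and 14 with total counts.

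All reversals of sign were in list correlations. For pigment genes and mitosis r was 0.039 with DESeq2 scaling, 0.0579 with a mean of at least 5 CPM, 0.0375 with the authors' size factors, and -0.164 to 0.162 with a tumour left out. For pigment genes and regulators it was -0.714 with total counts and -0.151 to 0.644 with a tumour left out. For epidermis and muscle it was -0.932 to 0.746 with a tumour left out, and Spearman's rho was -0.0857. The cause of these changes was not tested.

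No paired analysis was possible because a single group is described and no other group was set against it. Counts per kb of coding sequence were not run, since no coding lengths were at hand, so levels of different genes compare reads only. With 6 tumours, the smallest exact permutation p is 0.00139 for Pearson's r. At 66200553 to 72257237 counts per library, depth limits only genes near 0 CPM. Differences between tumours in cell makeup and in RNA per cell cannot be told apart.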

Other observations

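Neighbouring genes with a wide spread stood in 5 runs, which held 31 of the 392 genes with an SD of at least 2 at a mean of 5 CPM or more. These runs were found after the values were seen. The globin run and the proteasome run hold list genes given above, and the other 3 lie outside the lists. The run with the highest level lay on chromosome 12, 47485940 to 47609528 (Zv9), and held 8 clone-named genes. Of these, BX005305.1 is paired with human LGMN, a lysosomal protease gene, in the deposited table. Their summed level was 14148, 1108, 28.5, 8.97, 5.47 and 5.66 CPM in GFP 1 to GFP 6. GFP 1 was far above GFP 2, and both were far above the other tumours. Clone-named neighbours can share reads, so the split between them is uncertain and only their sum is given.

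A run of 9 genes on chromosome 22, 6188399 to 6423164, had a summed level of 319.9, 37, 77.5, 461, 839 and 13 CPM, high in GFP 5, GFP 4 and GFP 1. A run of 4 genes on chromosome 3, among them the antibody variable segments ighv3-2 and ighv4-2, at 34120488 to 34199134, had 20.6, 105, 0.286, 1.14, 0.0492 and 44.1 CPM. It was near 0 in GFP 3, GFP 4 and GFP 5 and highest in GFP 2, while the constant gene ighm was present in every tumour. The stress-inducible genes hsp70.1, hsp70.2 and hsp70.3 overlap in part with atp2a1, and hsp70.1 had 628, 96.1, 142, 867, 40.9 and 402 CPM. Among glycolysis genes the widest spread was that of the aldolase gene aldoca, with 10.4, 0.912, 0.346, 0.12, 0.115 and 0.52 CPM.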
